A study of Homo sapiens with 9 samples.

Results

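The genes described here are 47 genes of G2 and mitosis, taken as a fixed list of symbols and found by exact symbol in the expression table of Cal-27 cells. All 47 were among the 16366 genes listed, and all 47 were among the 12458 genes with enough counts to be tested. Before a cell divides, cyclin-dependent kinase 1 (CDK1) bound to A-type and B-type cyclins drives it from G2 into mitosis, where kinetochores couple chromosomes to spindle microtubules. The spindle checkpoint then holds back the anaphase-promoting complex until the chromosomes are attached, and the cell is cut apart at cytokinesis. Most of these genes are transcribed in G2, through the MuvB core with B-MYB and FOXM1, and are repressed in resting cells by the DREAM complex. Their summed RNA, MKI67 above all, is widely read as a proliferation signature in carcinomas.

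Cal-27 is an established human line of tongue squamous carcinoma cells, used here as wild type and grown in high-glucose medium with serum. Vesicles from cancer-associated fibroblasts (CAF exosomes) were added to one group for 48 h of co-culture and hOMF exosomes to another for the same 48 h. The remaining group was the control, labelled NC, for which the labels give no vehicle or mock vesicle. No time in culture is recorded for the control. Exosomes are small vesicles released by cells, and the labels neither spell out hOMF nor name the donors of the vesicles or their dose. Each of the 3 groups held 3 libraries, and since separate cultures are not stated, the spread behind every p-value is that of these samples and may be technical.

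The libraries held 11185672 to 12779101 estimated read counts each. CPM, the unit of level, is a gene's count scaled to library size by TMM (the trimmed mean of M-values). A change is a log2 fold change with its standard error (SE) in the edgeR quasi-likelihood fit, which held the 9 libraries together. Calls were made where p, adjusted by Benjamini-Hochberg over all genes tested, was under 0.05. Markers of squamous epithelium were present in every library, with 4631 to 5971 CPM summed over 12 genes in control, 5623 to 6358 with hOMF exosomes and 6632 to 6687 with CAF exosomes. Of these 12 markers, 6 rose with CAF exosomes and 2 with hOMF exosomes, or 4 and 1 without control replicate 3, where 9.54% and 11.8% of all tested genes were called higher (5.91% and 7.94% without that library). Control replicate 3 stood apart, at 29.8 on the first principal component (39.7% of the variance) against 18.8 and 21.3 for the other controls, while exosome libraries ranged from -16.6 to -8.48. It carried leukocyte transcripts: PTPRC, the leukocyte antigen CD45, stood at 7.50 CPM against at most 0.0909 in the other libraries, and the myeloid genes SRGN and ELANE, chosen after their values were seen, stood at 109 and 51.6 CPM against at most 0.535 and 0.273. In all, 175 genes above 1 CPM were at least 5 times higher in this library than in any other and took 0.138% of its counts, against 0 to 2 such genes in each other library. The part of these transcripts in the results below was not tested, and the counts are given with and without control replicate 3. Of 14 fibroblast markers 8 had enough counts to be tested, and they summed to 1051 to 1322 CPM in control, 1293 to 1459 with CAF exosomes and 1301 to 1369 with hOMF exosomes. COL6A1, LUM and SPARC rose with both exosomes, and 3 were called with CAF and 2 with hOMF exosomes without control replicate 3. Other fibroblast markers of the list, COL3A1, DCN, THY1, FAP and POSTN, were at or near 0 in all groups. The part of the fibroblast markers in the results was not tested.

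The promoters of some members are shown for sequence features that were not used to choose the members. A pair of short elements recur in promoters of G2 genes: the cell cycle genes homology region (CHR), which the MuvB core contacts and which reads TTTGAA in its main form and TTTAAA in a variant, and the CCAAT box, which is bound by NF-Y. RefSeq windows of 300 bases on GRCh38.p14, from 250 bases before the transcription start to 50 after it, were found for 39 of the 47 members, with 49 windows in all. The 120 bases before the start are printed 5′ to 3′ on the gene's strand for 8 members, with matches to either form of the CHR and to the CCAAT box, on either strand, in capitals (a CCAAT box on the other strand reads as ATTGG).
MKI67 (chr10:128126424-128126543, minus strand): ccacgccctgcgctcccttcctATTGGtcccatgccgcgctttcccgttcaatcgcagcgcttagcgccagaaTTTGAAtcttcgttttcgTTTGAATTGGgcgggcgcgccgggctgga
CCNA2 (chr4:121823884-121824003, minus strand): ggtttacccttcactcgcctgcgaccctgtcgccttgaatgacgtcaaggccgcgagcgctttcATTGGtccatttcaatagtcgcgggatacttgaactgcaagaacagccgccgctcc
CCNB1 (chr5:69167030-69167149, plus strand): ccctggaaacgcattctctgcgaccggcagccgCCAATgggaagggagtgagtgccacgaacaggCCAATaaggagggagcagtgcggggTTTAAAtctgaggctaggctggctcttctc
CCNB2 (chr15:59105026-59105145, plus strand): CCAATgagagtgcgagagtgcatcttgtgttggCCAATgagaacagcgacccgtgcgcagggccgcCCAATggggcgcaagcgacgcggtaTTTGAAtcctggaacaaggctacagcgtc
PLK1 (chr16:23678769-23678888, plus strand): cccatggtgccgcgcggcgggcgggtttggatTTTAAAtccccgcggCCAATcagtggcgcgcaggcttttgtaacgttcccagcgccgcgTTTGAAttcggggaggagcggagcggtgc
PRC1 (chr15:90994536-90994655, minus strand): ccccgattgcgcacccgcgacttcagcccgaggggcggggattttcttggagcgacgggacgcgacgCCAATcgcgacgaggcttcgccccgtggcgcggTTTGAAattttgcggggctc
INCENP (chr11:62123891-62124010, plus strand): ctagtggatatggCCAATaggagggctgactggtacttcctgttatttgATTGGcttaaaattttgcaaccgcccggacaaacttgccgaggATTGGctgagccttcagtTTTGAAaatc
CDC20 (chr1:43358861-43358980, plus strand): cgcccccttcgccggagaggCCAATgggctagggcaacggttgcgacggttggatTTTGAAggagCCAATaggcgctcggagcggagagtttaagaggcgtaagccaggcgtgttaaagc

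In this set MKI67 carries TTTGAA at -47 and -29, the latter overlapping a reversed CCAAT box, where positions give the first base of the match relative to the start. CCNB2 has TTTGAA at -29 behind CCAAT boxes at -120, -87 and -54, and PLK1 has TTTGAA at -29 with 1 CCAAT box at -73. PRC1 and INCENP have TTTGAA at -20 and -10. CCNB1 holds TTTAAA at -30 and CCAAT boxes at -87 and -55. CCNA2 has a CCAAT box at -56 and neither TTTGAA nor TTTAAA in the bases shown. Other forms of the CHR were not searched for, so CCNA2 is not shown to lack the element. CDC20 has TTTGAA at -65 beside CCAAT boxes at -100 and -55.

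TTTGAA, read on both strands, was present for 28 of the 39 members with a window (71.8%), against 13.8% of tested genes and 18.2% of all genes with a window. CCAAT was present for 33 members (84.6%) against 43.4% of tested genes, and both motifs for 24 (61.5%) against 5.71%. TTTAAA, which reads the same on both strands, was present for 15 members (38.5%) against 10.8% of tested genes. Over single windows, TTTGAA was in 63.3% of the members' windows and in 15.2% of all windows of that length. Of members with 1 annotated start, 17 of 33 (51.5%) had TTTGAA between -70 and -1, against 3.58% of all such genes. Lists of related genes held the motif too: TTTGAA was found for 63.6% of other spindle and cytokinesis genes with a window, 57.1% of CDK1 modulators, 52.9% of condensin and cohesin genes, 45.5% of DREAM and MuvB subunits, 37.5% of other kinetochore genes and 29.4% of the anaphase-promoting complex list. It was found for 1 of 34 S phase and DNA replication genes (2.94%). Among members that fell with CAF exosomes it was found for 14 of 18 (77.8%), and among members called in no comparison for 14 of 21 (66.7%). These shares describe letters in a window, not occupied sites.

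**Figure D1:**
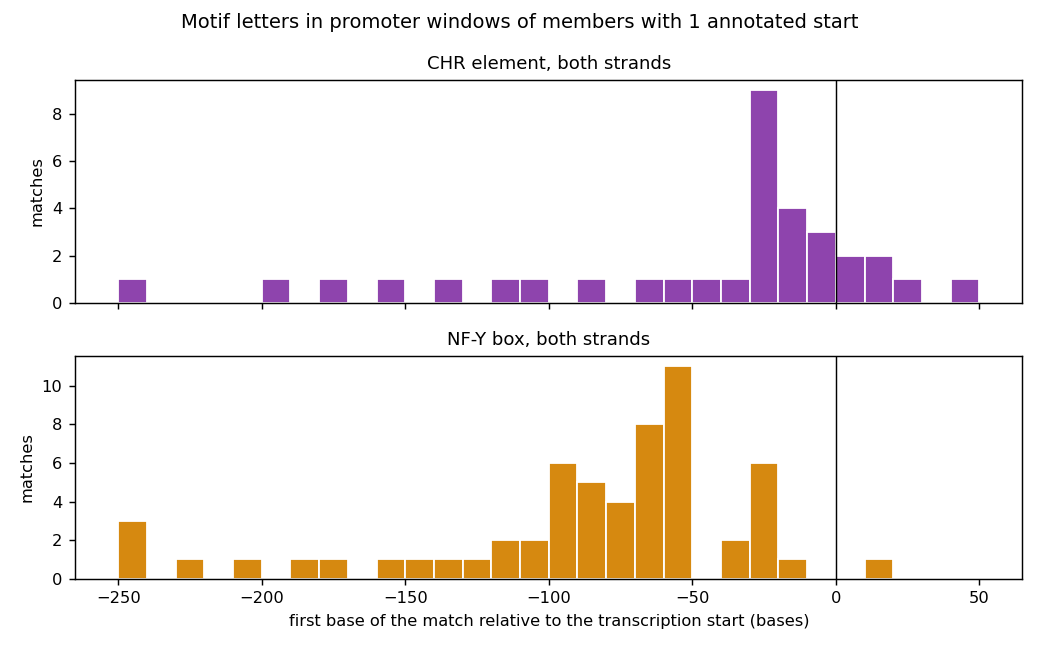
Number of matches (y axis) against distance of the first base of the match from the transcription start in bases (x axis), in the windows of the 33 members with 1 annotated start, for the CHR element TTTGAA (top) and the NF-Y box (bottom), both strands. Of 34 matches of the CHR element 20 lie between -70 and -1 (in 17 members) and 8 further upstream, and of 59 matches of the NF-Y box 28 lie there (in 24 members) and 30 further upstream.

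The first comparison sets the carcinoma cells given CAF exosomes against the control cells. With CAF exosomes, 23 of the 47 members fell and 0 rose, where 8.65% of all tested genes were called lower, 9.54% higher and 18.2% in either direction. The changes were modest: log2 fold changes over all 47 members ran from -0.70 to 0.09 with a median of -0.31, against a median of -0.01 over all tested genes. At an unadjusted p under 0.05 there were 34 members, and 46 of 47 were below 0 (50.7% of tested genes were). Each of the 3 CAF libraries lay below each of the 3 control libraries for 34 members and above for 0, where 18.2% of tested genes lay wholly below.

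Without control replicate 3, 13 members fell and 0 rose (5.58% of tested genes were called lower and 5.91% higher) and the median was -0.24. The CAF libraries then lay wholly below the other control libraries for 34 members, against 23.2% of tested genes. Without CAF exosome replicate 3, 12 members fell. The share of all tested genes called lower in that setting is not given, so this count has no background beside it. Calls over all genes also changed when single libraries were left out, as given in the last section. Bulk RNA cannot tell fewer cells in G2 and mitosis from less of these RNAs per cell.

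With hOMF exosomes, 15 of the 47 members fell and 0 rose, where 11.4% of tested genes were called lower, 11.8% higher and 23.3% in either direction. The median over members was -0.25 (range -0.59 to 0.23) against 0.00 over all tested genes, 41 of 47 were below 0, and 25 had an unadjusted p under 0.05. The hOMF libraries lay wholly below the control libraries for 21 members (19.3% of tested genes) and wholly above for CDC25B and HMMR (20.3%). Without control replicate 3, 10 members fell and 0 rose (8.1% of tested genes were called lower and 7.94% higher), with a median of -0.19, and 21 lay wholly below (23.7%). After GC and length correction the number that fell was 23 in place of 15, but this correction also shifted all tested genes. Their median went from 0.003 to -0.027, and 41.1% of all calls were higher in place of 50.9%. Both comparisons use the same control libraries, so their values are set side by side and not counted as separate evidence.

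Averaged over the 47 members, log2 CPM relative to the mean of the 9 libraries was 0.10, 0.16 and 0.28 in control replicates 1 to 3. It was -0.19, -0.07 and -0.15 in the CAF libraries and -0.09, -0.09 and 0.06 in the hOMF libraries. Each control library thus stood above each exosome library, by little in the case of control replicate 1 and hOMF exosome replicate 3. Control replicate 3 was the highest library for 32 of the 47 members, and CAF exosome replicate 1 the lowest for 17. Summed over members, the level was 1952, 2026 and 2204 CPM in control, 1600, 1704 and 1671 with CAF exosomes, and 1683, 1711 and 1871 with hOMF exosomes.

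**Figure D2:**
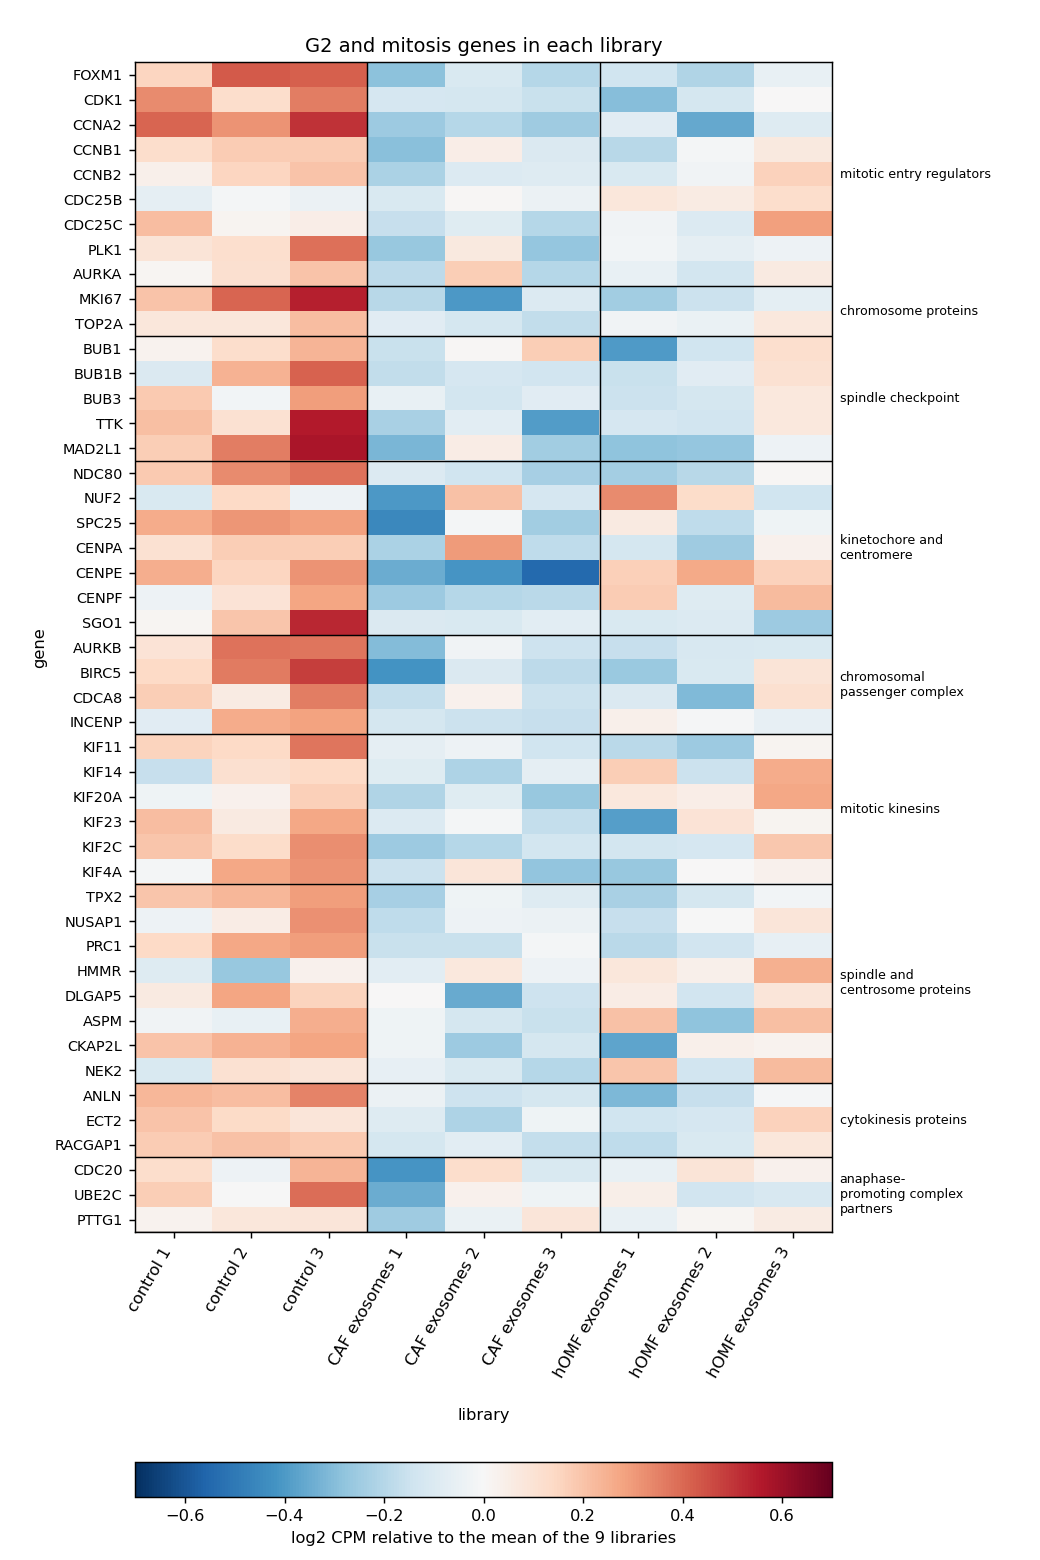
Log2 CPM of each of the 47 members (rows, grouped by role) relative to its mean over the 9 libraries (columns), from blue (lower) to red (higher). The 3 control columns are mostly red, control replicate 3 most of all (highest for 32 members). The CAF and hOMF columns are mostly blue, except that of hOMF exosome replicate 3, which is mostly red.

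Regulators of mitotic entry comprised 9 members, of which 5 fell with CAF exosomes and 3 with hOMF exosomes. Here and for the roles below, 8.65% and 11.4% of all tested genes were called lower in these comparisons. FOXM1 encodes a forkhead factor that switches on G2 genes (chromosome 12, 2857681 to 2877155, minus strand, GRCh38). It read 94.5, 115 and 114 CPM in control, 69.9, 79.0 and 74.2 with CAF exosomes, and 77.2, 73.6 and 82.1 with hOMF exosomes. Neither exosome group overlapped control, and FOXM1 fell by 0.54 on the log2 scale with CAF exosomes (SE 0.08, adjusted p 6.35e-04, edgeR) and by 0.47 with hOMF exosomes (SE 0.08, adjusted p 0.00104). CCNA2, cyclin A2 (chromosome 4, 121816444 to 121823933, minus strand), read 19.3, 18.1 and 20.7 CPM in control against 12.1, 12.6 and 12.2 with CAF exosomes and 13.7, 11.3 and 13.6 with hOMF exosomes. It fell by 0.65 with CAF exosomes (SE 0.11, adjusted p 8.43e-04, edgeR) and by 0.59 with hOMF exosomes (SE 0.11, adjusted p 0.00114). Neither exosome group overlapped control, and CCNA2 is the member with the largest fall with hOMF exosomes. Its kinase partner CDK1 read 35.3, 30.5 and 35.9 CPM in control, 25.8, 25.7 and 25.1 with CAF exosomes, and 22.7, 25.7 and 28.1 with hOMF exosomes. CDK1 fell by 0.41 in both comparisons (SE 0.09, edgeR adjusted p 0.00788 with CAF exosomes and 0.00595 with hOMF exosomes).

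The B-type cyclins moved less than cyclin A2. CCNB2, the cyclin B2 gene, fell by 0.27 with CAF exosomes (SE 0.09, edgeR adjusted p 0.0470) and stood at -0.11 (SE 0.09) with hOMF exosomes. CCNB1, cyclin B1, stood at -0.27 (SE 0.09, edgeR adjusted p 0.0526) and -0.20 (SE 0.09), not called in either comparison although no exosome library reached a control library. PLK1, the polo-like kinase that activates CDK1, fell by 0.35 with CAF exosomes (SE 0.10, edgeR adjusted p 0.0237) and stood at -0.24 (SE 0.10, adjusted p 0.0854) with hOMF exosomes. The calls on CCNB2 and PLK1 with CAF exosomes were lost without control replicate 3. Of 19 alternative analyses, 11 lost the CCNB2 call and 5 the PLK1 call, both limma fits among them. AURKA, the centrosomal Aurora kinase, was called in neither comparison (-0.17 and -0.15, SE 0.11 each), nor was CDC25C, a phosphatase that activates CDK1 (-0.25 and -0.02). CDC25B, its relative, did not follow the other entry genes: it read 152, 157 and 154 CPM in control, 148, 160 and 154 with CAF exosomes, and 168, 165 and 173 with hOMF exosomes. Its log2 change with hOMF exosomes was 0.12 (SE 0.06, edgeR adjusted p 0.172), and limma on log2(FPKM + 1) called it higher at 0.21 (adjusted p 0.0245).

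**Figure D3:**
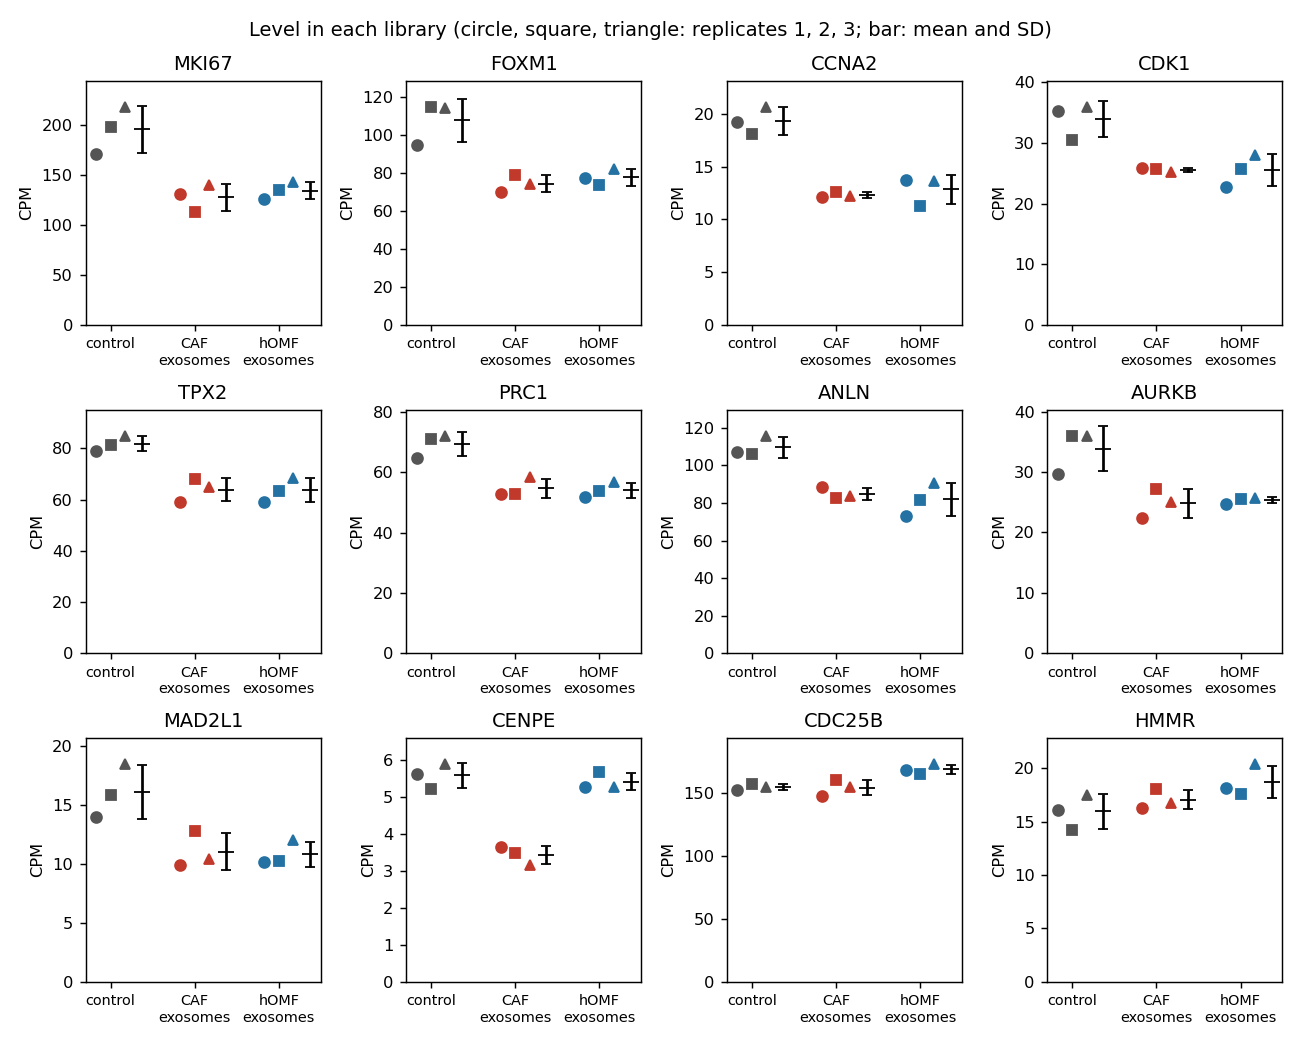
CPM (y axis, from 0) of 12 members in each library of control, CAF exosome and hOMF exosome groups (x axis), with the mean and SD of each group as a bar beside its 3 points. MKI67, FOXM1, CCNA2 and CDK1 are lower in both exosome groups than in control, CENPE is low with CAF exosomes alone, and CDC25B and HMMR are highest with hOMF exosomes.

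Both chromosome proteins fell with CAF exosomes, and 1 of them with hOMF exosomes. MKI67 encodes Ki-67, which coats mitotic chromosomes and is the pathologist's marker of cycling cells (chromosome 10, 128096659 to 128126385, minus strand). It read 171, 198 and 218 CPM in control, 131, 113 and 139 with CAF exosomes, and 126, 135 and 142 with hOMF exosomes. The lowest control library stood above every exosome library, and MKI67 fell by 0.62 with CAF exosomes (SE 0.09, adjusted p 5.17e-04, edgeR) and by 0.54 with hOMF exosomes (SE 0.09, adjusted p 8.72e-04). These are 0.652 and 0.686 times the control level. Without control replicate 3 the falls were 0.53 and 0.46, still called. TOP2A, topoisomerase II alpha, which untangles sister chromatids, read 101, 101 and 111 CPM in control, 90.3, 87.8 and 84.8 with CAF exosomes, and 94.0, 92.3 and 100 with hOMF exosomes. It fell by 0.25 with CAF exosomes (SE 0.07, edgeR adjusted p 0.0215), a call lost without control replicate 3, and stood at -0.13 (SE 0.07, adjusted p 0.203) with hOMF exosomes.

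Of the 5 spindle checkpoint genes, 2 fell with CAF exosomes and the same number with hOMF exosomes, in both cases TTK and MAD2L1. MAD2L1, the checkpoint protein that sequesters CDC20, read 14.0, 15.9 and 18.5 CPM in control, 9.90, 12.9 and 10.4 with CAF exosomes, and 10.2, 10.2 and 12.1 with hOMF exosomes. It fell by 0.55 (SE 0.13, adjusted p 0.0115, edgeR) and by 0.58 (SE 0.13, adjusted p 0.00639). TTK, the kinase MPS1 that starts checkpoint signalling, read 17.5, 16.4 and 22.3 CPM in control, 12.9, 14.4 and 11.5 with CAF exosomes, and 14.0, 13.8 and 16.0 with hOMF exosomes. Its highest value was in control replicate 3, and it fell by 0.54 with CAF exosomes (SE 0.13, adjusted p 0.0101, edgeR) and by 0.36 with hOMF exosomes (SE 0.13, adjusted p 0.0495). Without control replicate 3 neither checkpoint gene was called with CAF exosomes, and MAD2L1 alone was called with hOMF exosomes. The TTK call with hOMF exosomes was lost under 13 of 19 alternative analyses, DESeq2 and limma among them. BUB1, BUB1B and BUB3, the other checkpoint genes, were called in neither comparison, with values of -0.12, -0.35 and -0.25 with CAF exosomes and -0.26, -0.24 and -0.22 with hOMF exosomes.

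The 7 kinetochore and centromere genes included 4 that fell with CAF exosomes and 1 with hOMF exosomes (14.3%, near the 11.4% of all tested genes). NDC80, which gives its name to the complex that grips microtubules, read 17.1, 19.0 and 19.6 CPM in control, 14.1, 13.6 and 12.8 with CAF exosomes, and 12.8, 13.1 and 15.1 with hOMF exosomes. It fell by 0.46 (SE 0.11, adjusted p 0.00761, edgeR) and by 0.44 (SE 0.11, adjusted p 0.00747). SPC25, a partner in the same complex, fell by 0.52 with CAF exosomes (SE 0.17, edgeR adjusted p 0.0406), a call lost without control replicate 3. In all, 11 of 19 alternative analyses lost the SPC25 call, DESeq2 among them. NUF2, another partner, stood at -0.09 and 0.11 and was not called. CENPE encodes a kinesin that carries chromosomes to the spindle equator (chromosome 4, 103105806 to 103198409, minus strand). It read 5.64, 5.24 and 5.90 CPM in control, 3.66, 3.49 and 3.17 with CAF exosomes, and 5.29, 5.68 and 5.27 with hOMF exosomes. CENPE was low in the CAF libraries alone, falling by 0.70 on the log2 scale (SE 0.17, adjusted p 0.00934, edgeR), while with hOMF exosomes it stood at -0.05 (SE 0.16, adjusted p 0.856). CENPF, a large kinetochore protein of G2 cells, fell by 0.33 with CAF exosomes (SE 0.10, edgeR adjusted p 0.0266), lost without control replicate 3, and stood at -0.01 with hOMF exosomes. CENPA, the centromeric histone, and SGO1, the shugoshin that protects centromeric cohesion, were not called (-0.17 and -0.37 with CAF exosomes, -0.27 and -0.44 with hOMF exosomes).

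The chromosomal passenger complex corrects faulty attachments and guides cytokinesis, and of its 4 genes 3 fell with CAF exosomes and 2 with hOMF exosomes. AURKB, its kinase, read 29.6, 36.0 and 36.0 CPM in control, 22.4, 27.2 and 25.0 with CAF exosomes, and 24.7, 25.6 and 25.7 with hOMF exosomes. AURKB fell by 0.45 (SE 0.10, adjusted p 0.00578, edgeR) and by 0.42 (SE 0.10, adjusted p 0.00610). BIRC5, survivin, read 26.6, 31.2 and 33.8 CPM in control, 18.0, 22.5 and 21.3 with CAF exosomes, and 20.1, 22.4 and 25.7 with hOMF exosomes. No exosome library reached the lowest control, and BIRC5 fell by 0.57 (SE 0.12, adjusted p 0.00384, edgeR) and by 0.42 (SE 0.11, adjusted p 0.0143), the latter call lost without control replicate 3. INCENP, the scaffold, read 34.5, 43.6 and 44.4 CPM in control, 33.4, 32.9 and 32.6 with CAF exosomes, and 37.4, 36.2 and 35.0 with hOMF exosomes. It fell by 0.31 with CAF exosomes (SE 0.09, edgeR adjusted p 0.0301), a call lost without control replicate 3, and stood at -0.18 (SE 0.09, adjusted p 0.175) with hOMF exosomes. CDCA8, borealin, stood at -0.30 and -0.29 and was not called.

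Of the 6 mitotic kinesins, 2 fell with CAF exosomes and 1 with hOMF exosomes (16.7%, near the 11.4% of all tested genes). KIF2C, which depolymerises microtubules at centromeres, read 33.1, 31.6 and 36.2 CPM in control, 24.2, 25.1 and 26.5 with CAF exosomes, and 26.4, 26.6 and 32.9 with hOMF exosomes. It fell by 0.41 with CAF exosomes (SE 0.10, adjusted p 0.00955, edgeR) and stood at -0.23 (SE 0.10, adjusted p 0.0976) with hOMF exosomes, whose replicate 3 lay among the controls. KIF11, the motor that pushes spindle poles apart, read 27.6, 27.3 and 32.2 CPM in control, 23.7, 24.2 and 22.4 with CAF exosomes, and 21.7, 20.7 and 25.1 with hOMF exosomes. KIF11 fell by 0.31 (SE 0.10, adjusted p 0.0370, edgeR) and by 0.37 (SE 0.10, adjusted p 0.0133), and both calls were lost without control replicate 3. They were lost under 9 and 4 of 19 alternative analyses, both limma fits among them. KIF20A, a motor of the central spindle, stood at -0.25 with CAF exosomes (SE 0.10, edgeR adjusted p 0.0859) and 0.08 with hOMF exosomes. KIF14, KIF23 and KIF4A were not called, at -0.16, -0.28 and -0.31 with CAF exosomes and 0.07, -0.26 and -0.27 with hOMF exosomes.

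Among the 8 spindle and centrosome genes, 3 fell in each of the comparisons with control: TPX2, PRC1 and CKAP2L. TPX2, which activates Aurora A on the spindle, read 79.1, 81.4 and 84.9 CPM in control, 59.0, 67.8 and 64.9 with CAF exosomes, and 59.2, 63.5 and 68.4 with hOMF exosomes. It fell by 0.36 in both (SE 0.08, edgeR adjusted p 0.00586 with CAF exosomes and 0.00400 with hOMF exosomes). PRC1, which bundles the microtubules of the central spindle, read 64.9, 71.1 and 72.2 CPM in control, 52.9, 52.9 and 58.3 with CAF exosomes, and 51.7, 53.8 and 56.6 with hOMF exosomes. PRC1 fell by 0.34 (SE 0.08, adjusted p 0.00613, edgeR) and by 0.36 (SE 0.08, adjusted p 0.00336). Both genes kept their calls without control replicate 3. CKAP2L, a spindle protein, fell by 0.38 and by 0.33, and lost both calls without it. Its calls were lost under 9 and 13 of 19 alternative analyses, DESeq2 and limma among them. HMMR, which encodes the hyaluronan receptor RHAMM with a role at the spindle, was the only member above 0 with CAF exosomes. It read 16.1, 14.3 and 17.5 CPM in control, 16.3, 18.0 and 16.8 with CAF exosomes, and 18.1, 17.6 and 20.4 with hOMF exosomes. Its log2 changes of 0.09 (SE 0.11) and 0.23 (SE 0.11, edgeR adjusted p 0.129) were not called. NUSAP1, DLGAP5, ASPM and NEK2 were not called either, with values between -0.33 and -0.16 with CAF exosomes and between -0.17 and 0.07 with hOMF exosomes.

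Of the 3 cytokinesis genes 2 fell in both comparisons with control. ANLN, anillin, which scaffolds the contractile ring, read 107, 106 and 116 CPM in control, 88.6, 82.6 and 83.7 with CAF exosomes, and 73.3, 81.7 and 90.7 with hOMF exosomes. Both exosome groups lay below control, and ANLN fell by 0.37 (SE 0.08, adjusted p 0.00580, edgeR) and by 0.42 (SE 0.08, adjusted p 0.00176). RACGAP1, part of centralspindlin, fell by 0.31 and by 0.25 (SE 0.08 each, edgeR adjusted p 0.0162 and 0.0350), the latter call lost without control replicate 3. That call was lost under 9 of 19 alternative analyses, DESeq2 and limma among them. ECT2, the exchange factor that RACGAP1 recruits, was not called (-0.25 and -0.16). None of the 3 partners of the anaphase-promoting complex was called in the main edgeR fit or by DESeq2 in either comparison, and 1 of them had an unadjusted p under 0.05 in each. UBE2C, the ubiquitin-conjugating enzyme that works with the complex, read 47.5, 42.2 and 55.4 CPM in control, 33.1, 43.1 and 41.4 with CAF exosomes, and 43.4, 38.4 and 39.0 with hOMF exosomes, overlapping in both. UBE2C stood at -0.31 (SE 0.11, edgeR adjusted p 0.0650) and -0.27 (SE 0.11, adjusted p 0.0878). CDC20, the activator of the complex, stood at -0.23 and -0.09, and PTTG1, the securin it destroys, at -0.13 and -0.06. After GC and length correction edgeR called UBE2C lower in both comparisons with control and CDC20 lower with CAF exosomes.

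**Figure D4:**
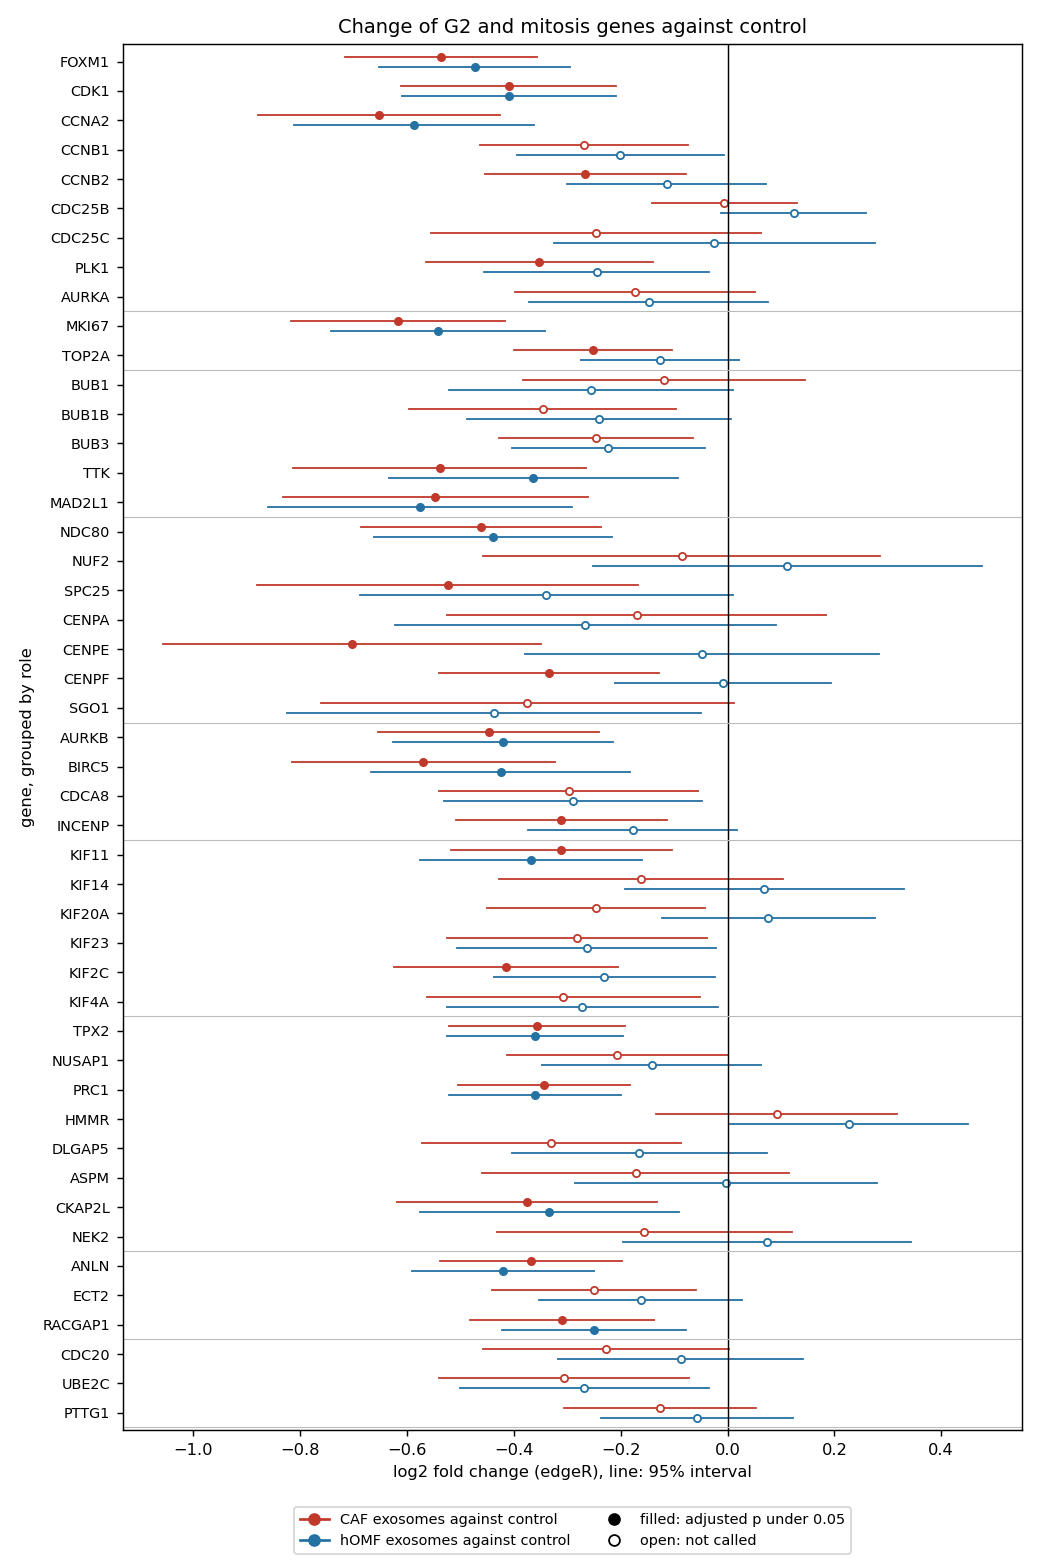
Log2 fold change against control (x axis) of each of the 47 members (y axis, grouped by role) with its 95% interval, for CAF exosomes (red) and hOMF exosomes (blue), where filled points are called at an adjusted p under 0.05 (23 and 15 members). Nearly all points lie left of 0, with HMMR alone to the right with CAF exosomes.

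CAF exosomes and hOMF exosomes were compared directly, without the control libraries entering the contrast. By edgeR 0 of the 47 members were called, where 0.0161% of tested genes (2 genes) were, 0.00803% lower and 0.00803% higher. DESeq2 and limma likewise called 0 members, and 3 had an unadjusted p under 0.05 by edgeR. The median was -0.07 and 39 of 47 members were below 0, with 51.3% of tested genes below 0. The CAF libraries lay wholly below the hOMF libraries for 6 members (CDC25B, TOP2A, CENPE, CENPF, INCENP and KIF20A) and wholly above for 0, where 6.59% of tested genes lay wholly below and 7.15% wholly above.

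CENPE had the largest of these differences, at -0.65 (SE 0.17, 95% interval -1.01 to -0.30, edgeR adjusted p 0.297), its CAF values of 3.17 to 3.66 CPM lying under the hOMF values of 5.27 to 5.68. CENPF stood at -0.33 (interval -0.53 to -0.12, edgeR adjusted p 0.372). KIF20A read 21.7, 23.7 and 20.9 CPM with CAF exosomes against 26.5, 25.9 and 30.3 with hOMF exosomes and 24.5, 25.7 and 28.2 in control, a difference between exosome groups of -0.32 (SE 0.10, interval -0.53 to -0.12, edgeR adjusted p 0.372). These 3 are the members with an unadjusted p under 0.05, and none passed the adjustment. For members that fell against control in both comparisons, intervals of the direct difference spanned 0: -0.28 to 0.13 for MKI67, -0.30 to 0.17 for CCNA2, -0.20 to 0.20 for CDK1 and -0.16 to 0.17 for TPX2. CDC25B stood at -0.13 (SE 0.06, interval -0.27 to 0.01), TOP2A at -0.13 (SE 0.07, interval -0.27 to 0.02), TTK at -0.18 (SE 0.13, interval -0.46 to 0.11) and INCENP at -0.13 (SE 0.09, interval -0.33 to 0.06), with edgeR adjusted p of 0.677, 0.727, 0.827 and 0.812.

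The members with the smallest p of the last 3 roles overlapped between the exosome groups. NEK2, a centrosomal kinase, read 9.64, 11.20 and 11.01 CPM in control, 9.99, 9.62 and 9.01 with CAF exosomes, and 11.9, 9.44 and 12.2 with hOMF exosomes, a difference between exosome groups of -0.23 (SE 0.13, interval -0.50 to 0.04, edgeR adjusted p 0.727). ECT2 read 55.1, 52.6 and 50.9 CPM in control, 45.0, 41.3 and 47.0 with CAF exosomes, and 43.6, 44.2 and 53.7 with hOMF exosomes, a difference of -0.09 (SE 0.09, interval -0.28 to 0.10, edgeR adjusted p 0.886). CDC20 read 89.4, 79.9 and 96.7 CPM in control, 61.6, 89.4 and 76.3 with CAF exosomes, and 79.1, 87.5 and 83.9 with hOMF exosomes, a difference of -0.14 (SE 0.11, interval -0.37 to 0.09, edgeR adjusted p 0.834). The low CDC20 value is that of CAF exosome replicate 1.

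Levels between members can be compared only per transcript length, for which the deposited FPKM was used. In control cells PTTG1 had the highest FPKM, at 114 ± 2.83 (SD, n = 3), then UBE2C at 95.5 ± 14.4, CDC20 at 63.3 ± 6.60, BUB3 at 55.6 ± 8.43 and CDC25B at 52.5 ± 0.271. UBE2C overlapped neither neighbour by its SD. Of these 5 most abundant members, none was called against control in the main edgeR fit. After GC and length correction BUB3 and UBE2C were called lower with both exosomes, and CDC20 with CAF exosomes. BUB3 was also called lower with CAF exosomes by DESeq2 (adjusted p 0.048), and CDC25B was called higher with hOMF exosomes by limma. AURKB (35.4 ± 3.93) and FOXM1 (32.3 ± 3.60) followed among the members that fell in both comparisons. MKI67 stood at 18.3 ± 2.40, CDK1 at 20.6 ± 1.90 and CCNA2 at 7.66 ± 0.598. At the other end lay CENPE at 0.687 ± 0.0451, ASPM at 1.69 ± 0.155 and KIF14 at 2.18 ± 0.219.

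Other genes of the cell cycle were followed in lists of the same pathways. With CAF exosomes, where 8.65% of all tested genes were called lower, 7 of 31 other kinetochore and centromere genes fell and 0 rose, led by ZWINT, a kinetochore scaffold, which fell by 0.55 (SE 0.10, edgeR adjusted p 0.00138). Of 19 condensin and cohesin genes 7 fell, CDCA5 (sororin, which locks cohesin on chromatin) by 0.63 (SE 0.08, adjusted p 1.39e-04). Among 27 other spindle and cytokinesis genes 10 fell, with HAUS6, an augmin subunit, down by 0.45. Just 1 of 17 genes of the anaphase-promoting complex list fell, its inhibitor FBXO5 (EMI1), by 0.59, a call lost without control replicate 3. Of 12 DREAM and MuvB subunits 3 fell, with MYBL2, which encodes B-MYB, reading 80.9 to 102 CPM in control and 44.1 to 60.9 with CAF exosomes, a fall of 0.78 (SE 0.11, adjusted p 3.27e-04). Of 17 modulators of CDK1 4 fell, GTSE1, a G2 gene that restrains p53, by 0.70 (SE 0.10, adjusted p 2.34e-04). No gene of these lists rose with CAF exosomes.

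With hOMF exosomes, where 11.4% of all tested genes were called lower, the counts that fell were 5 of 31 kinetochore genes (16.1%), 5 of 19 condensin and cohesin genes (26.3%), 9 of 27 spindle genes (33.3%) and 1 of 17 genes of the anaphase-promoting complex list (5.88%). Of the 12 DREAM and MuvB subunits 5 fell, MYBL2 by 0.88 (SE 0.11, edgeR adjusted p 8.03e-05), and 2 rose, RBL2 by 0.30 and TFDP2 by 0.23, both lost without control replicate 3. RBL2 encodes the pocket protein p130 of the repressive DREAM complex, while RBL1, from the same list, fell by 0.41. TFDP1 fell by 0.56, LIN9 by 0.73 and RBBP4 by 0.25. Among the 17 CDK1 modulators 5 fell, GTSE1 by 0.73, and 1 rose: GADD45A, a stress gene that restrains CDK1, by 0.51 (SE 0.10, edgeR adjusted p 0.00279).

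Genes of DNA replication and S phase, which come before G2, had larger median changes than the members. With CAF exosomes 24 of 40 fell and 0 rose with a median of -0.38, and with hOMF exosomes 28 fell and 0 rose with a median of -0.49. Of all tested genes, 8.65% and 11.4% were called lower in these comparisons. RRM2, which ribonucleotide reductase needs to make deoxynucleotides, fell by 0.88 and by 0.98, and CCNE2, cyclin E2, by 1.54 and by 1.85 (edgeR adjusted p 1.63e-04 and 2.94e-05). The members had medians of -0.31 and -0.25 in the same comparisons. In the direct comparison 9 of 40 S phase genes were lower with CAF than with hOMF exosomes, with a median of 0.11 and 0 called by edgeR, where the members had a median of -0.07. Without control replicate 3, 5.58% of all tested genes were called lower with CAF exosomes and 8.1% with hOMF exosomes. In that setting 13 of 40 S phase genes fell with CAF exosomes and 22 with hOMF exosomes. Of 31 kinetochore, 19 condensin and cohesin, and 27 spindle genes, 4, 3 and 4 fell with CAF exosomes. With hOMF exosomes 5, 3 and 8 of them fell. The DREAM and MuvB list of 12 genes then had 2 and 4 genes that fell. The 17 CDK1 modulators had 3 and 2, with hOMF exosomes near the share of all tested genes. The 17 genes of the anaphase-promoting complex list had 0 and 0. These differences between lists are descriptions and were not tested.

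**Figure D5:**
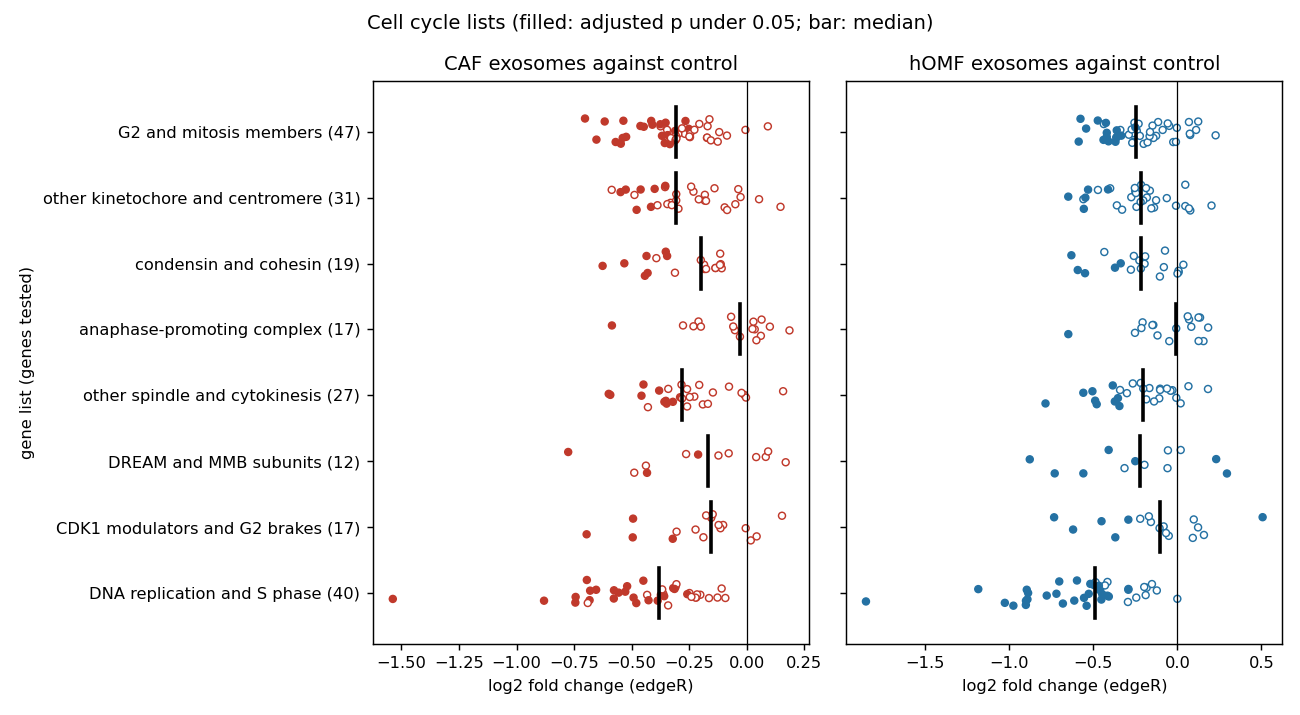
Log2 fold change against control (x axis) of every tested gene of the members and of 7 other cell cycle lists (y axis, genes tested in brackets), for CAF exosomes (left) and hOMF exosomes (right), with called genes filled and the list median as a black bar. The list medians lie left of 0, that of the anaphase-promoting complex closest to 0 (-0.03 and -0.01) and that of the S phase list furthest from it (-0.38 and -0.49).

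Some members share sequence with other genes in the GENCODE annotation. Exons of FOXM1 overlap ITFG2 on the other strand over 781 bases, CCNA2 overlaps EXOSC9 over 254, PLK1 overlaps ERN2 over 42, ANLN overlaps KIAA0895 over 78 and RACGAP1 overlaps AQP6 over 137. On the same strand, PRC1 shares 3181 exon bases with AC068831.7 and NUSAP1 shares 1787 with AC087721.2, both not analysed here. CENPA shares 138 bases with SLC35F6 on its own strand, and BUB1B shares 457 with a readthrough gene. The libraries were stranded, but no source used here says whether counting used the strand, and reads of an overlapping partner may have been counted in either gene. Estimated counts of SPC25 were not whole in 8 libraries, that is, reads were divided between it and similar sequences, and its values are uncertain for that reason.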

How the data were processed

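Poly(A) RNA of Cal-27 cells was sequenced as paired reads in 9 libraries. The authors deposited 1 table of 16366 genes with expected counts and FPKM per library; per the submitters' processing notes Bowtie2 2.2.5 and RSEM 1.2.8 were used, and these notes name a mouse build while every gene identifier is human, which leaves the true build unknown. FPKM values deposited by the authors are scaled by transcript length and depth. No source used here gives the annotation.

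Expected counts were rounded. Genes passed filterByExpr (minimum count 10, minimum total 15), leaving 12458. Libraries were TMM scaled and fitted together by edgeR 4.0.16 (glmQLFit, glmQLFTest, two-sided, group as the only term, 6 residual degrees of freedom) in R 4.3.3, with Benjamini-Hochberg adjustment over all genes, a threshold of 0.05 and 95% intervals. Alternatives used DESeq2 1.42.0 and limma 3.58.1 (pseudocounts 1 and 0.1). The code of the fit was run on simulated counts with the same spread for all genes. That run does not cover the differences between replicates or control replicate 3 of these data. Depth was 11185672 to 12779101 counts, and replicates differed beyond sampling noise (chi-square per degree of freedom 3.16 to 11.5). Gene positions came from GENCODE on GRCh38 and promoters from RefSeq. The members and lists were chosen with earlier results of these data known. Members given in full are, in each comparison, the 12 called members with the smallest p and the member with the smallest p of each role. From each wider list at most 3 called genes with the smallest p are named in a comparison. RBL2, TFDP2, RBL1 and RBBP4 were named, and HMMR was given in full, outside this rule after their values were seen.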

Additional observations from a re-analysis of the deposited data

How the results depend on the processing

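Under 19 alternatives no called member changed sign in any comparison with control. FOXM1, CDK1, CCNA2, MKI67, NDC80, AURKB, TPX2, PRC1 and ANLN kept their calls under all 19 in both comparisons with control. With CAF exosomes the calls lost most often were CCNB2 and SPC25 (11 each), KIF11 and CKAP2L (9 each), and CENPF and INCENP (7 each). With hOMF exosomes they were TTK and CKAP2L (13 each) and RACGAP1 (9). The number of members that fell with CAF exosomes, 23, was 35 after GC and length correction with the replicate block. It was 12 to 26 with 1 library left out, and 13 without control replicate 3 (5.58% of tested genes called lower). For hOMF exosomes the 15 became 23 after GC and length correction and 27 with the block added. It became 10 to 20 with 1 library left out, and 10 without control replicate 3 (8.1% of tested genes called lower). For the other settings the share of all tested genes called lower is not given, so those counts have no background beside them. With or without the block, GC and length correction moved the median over all tested genes to -0.025 with CAF exosomes and -0.027 with hOMF exosomes. With the block, 42.8% and 40.9% of all calls were higher. Over all genes, leaving out 1 library gave 1344 to 2388 calls with CAF exosomes (1389 without control replicate 2, 1442 without control replicate 3) and 1695 to 3096 with hOMF exosomes. For CAF against hOMF exosomes the 2 calls over all genes became 0 with library totals, with either limma fit and with the 2 groups alone, 36 with DESeq2, 20 after GC and length correction, 27 with the block added, and 0 to 8 with 1 library left out. The causes of these changes were not tested. Of the uncalled members, 12 of 24 gained a call under at least 1 alternative with CAF exosomes, 14 of 32 with hOMF exosomes and 0 of 47 in the direct comparison.

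The share of calls that were higher, 52.4% with CAF exosomes and 50.9% with hOMF exosomes, was 63.2% and 66.9% with library totals, 64% and 68.8% with limma on log2(FPKM + 1), and 43.1% and 41.1% after GC and length correction. Median GC content was 42.6% in the members' transcripts and 48.5% over tested genes. Replicate numbers recur in all groups, but deviations of same-numbered libraries correlated between -0.156 and 0.143 and not every same-numbered pair exceeded 0.1. The highest correlation of 5 of 9 libraries was with a library of the same number, and 0 correlated best with their own number in both other groups, so the numbers were not taken to pair the samples. With the number as a replicate block 25 members fell with CAF exosomes, 13 with hOMF exosomes and 0 were called in the direct comparison. Of all calls against control, 52.6% and 51% were then higher. Depth limits the least counted members most: NUF2, SPC25, CENPA, CENPE and SGO1 have the widest intervals in the comparisons with control.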
